A study of Mus musculus with 44 samples.

Results

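Cell division in blood-forming stem and progenitor cells is held back by a set of inhibitors and quiescence genes, and 10 of them were followed here: Cdkn1a, Cdkn1c, Cdkn2c, Cdkn2d, Ndn, Btg1, Tob1, Ccng1, Ccng2 and Foxo3. They were chosen by symbol, and every probe set that the array's gene table assigns to these symbols alone was taken. The 10 genes, of 8251 genes named on the array, had 13 probe sets, of which 10 (1 for each gene) were bright enough to be tested.

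Cyclin-dependent kinases drive a cell from rest into DNA synthesis. The CIP/KIP proteins p21 (Cdkn1a) and p57 (Cdkn1c) bind cyclin-kinase complexes, whereas the INK4 proteins (Cdkn2c, Cdkn2d) bind the kinases that partner the D-type cyclins. In mouse bone marrow, p57, necdin (Ndn) and the forkhead factor Foxo3 are known for keeping stem cells out of the cell cycle, and proteins of the BTG/TOB family slow the division of many cell types.

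RNA was measured in Lin-Sca-1+c-kit+ cells, a sorted bone marrow fraction enriched in stem cells, from 22 BXD recombinant inbred strains bred from C57BL/6 and DBA/2 mice. The study's stated aim was to map loci for stem cell function. All animals were untreated as far as the labels say, female and 3 to 6 months old, and the marrow of 3 mice was pooled for each sample. Red cells had been lysed, the lineage-negative gate held the 5% of cells with the least lineage staining, and a sample yielded 16000 to 118000 cells. Each strain had 2 Affymetrix MG_U74Av2 arrays, 44 in all, on which a probe set reports 1 transcript by its brightness. Array numbers in the labels form a series A with 10 strains and 20 arrays and a series B with 12 strains and 24 arrays. No strain is in both, so array series and strain cannot be told apart between them, and strains were compared within a series. The labels do not name the pool behind an array, so p-values speak only to the spread among these arrays, part of which may be technical. In sorted cells measured in bulk, fewer cells that carry a transcript and less transcript per cell cannot be told apart.

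Promoters from RefSeq (GRCm38.p6, 250 bases before to 50 after the annotated start) were found for 9 of the 10 genes, 11 promoters in all, and Cdkn1c had no entry in that table. Those of 3 genes are printed: Cdkn1a, because it is a textbook target of p53, and Btg1 and Tob1, the family pair whose strain means correlated positively below. Capitals mark matches, on either strand, to the p53 decamer in Cdkn1a and in the others to the TATA box with the letters TATAAA, the core of the cAMP response element with TGACG, the CCAAT box, the GC box with GGGCGG and the forkhead motif with TGTTTAC. The first of the annotated Cdkn1a starts (chr17:29090729-29091028, plus strand), the Btg1 start (chr10:96616751-96617050, plus strand) and the Tob1 start (chr11:94211204-94211503, plus strand) read as follows.
Cdkn1a: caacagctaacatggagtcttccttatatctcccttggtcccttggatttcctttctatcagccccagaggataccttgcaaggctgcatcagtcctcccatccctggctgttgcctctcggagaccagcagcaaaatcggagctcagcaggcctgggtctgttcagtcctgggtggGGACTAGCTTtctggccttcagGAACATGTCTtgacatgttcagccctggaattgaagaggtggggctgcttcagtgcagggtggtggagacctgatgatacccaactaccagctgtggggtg
Btg1: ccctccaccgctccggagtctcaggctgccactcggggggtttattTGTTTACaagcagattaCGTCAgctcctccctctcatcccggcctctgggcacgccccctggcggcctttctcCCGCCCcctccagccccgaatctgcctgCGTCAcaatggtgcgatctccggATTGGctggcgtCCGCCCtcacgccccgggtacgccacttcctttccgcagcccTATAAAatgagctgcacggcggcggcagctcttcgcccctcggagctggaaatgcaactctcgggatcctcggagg
Tob1: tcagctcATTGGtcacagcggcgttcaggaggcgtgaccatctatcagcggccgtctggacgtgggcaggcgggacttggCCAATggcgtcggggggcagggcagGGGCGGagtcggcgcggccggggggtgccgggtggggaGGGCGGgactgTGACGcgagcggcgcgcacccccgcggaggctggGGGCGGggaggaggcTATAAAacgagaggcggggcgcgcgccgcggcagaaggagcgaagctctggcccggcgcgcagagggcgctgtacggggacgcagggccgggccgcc

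A gene was counted if any of its promoters matched (Cdkn1a and Cdkn2c had 2 each), whereas the shares are per promoter. The p53 decamer was in promoters of Cdkn1a (first start only), Cdkn2d and Ccng1, and in 8.36% of all 32851 mouse promoters of this length. TATAAA was in Btg1 and Tob1 and in none of the other 7 genes, against 13.6% of all promoters. TGACG was in Btg1, Tob1 and Foxo3 (20.8% of all promoters) and TGTTTAC in Btg1 (3.65%). The common boxes were also common here, with GGGCGG in 8 of the 9 genes (35.7% of all promoters) and CCAAT in 5 (37.4%). In Cdkn1a and Cdkn2c the GGGCGG matches were at the second start only. TGANTCA, the AP-1 motif, was in none of the 9 genes (7.81% of all promoters). No motif overlapped another in the printed promoters. A match is a string of letters and not a shown binding site.

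Arrays carrying the label BXD40 or BXD42 did not match each other. Over 272 probe sets that separated the other strains, the arrays of BXD40 had r = -0.164 and those of BXD42 had r = -0.111. These are correlations over probe sets, which do not count as independent replicates. The arrays of the other 20 strains correlated at 0.357 to 0.854. BXD40 replicate 1 correlated with BXD42 replicate 2 at 0.615, and BXD40 replicate 2 with BXD42 replicate 1 at 0.502. The labels were kept, and results that change without these arrays are given with and without them. Of the sorting markers, Kit averaged 9.44 on the log2 scale over all arrays, and no probe set of Ly6a, the gene of Sca-1, was used. Cd34 and Flt3, which are not named in the sort, averaged 8.74 and 11.00. Markers of other cells on the array were in part bright enough to be tested, as were 5624 of all 8251 named genes. These were 11 of 13 neutrophil and monocyte, 10 of 12 B cell and 4 of 7 T and NK cell markers. Of erythroid markers on the array 3 of 5 were tested, and of megakaryocyte markers 2 of 4. Brightness alone does not show presence: for Rag1, Vpreb1 and Pax5 another probe set averaged only 4.16, 4.42 and 4.28, where the floor is 4. The other probe sets of Cd34 and Vwf, too dim to be tested, averaged 5.17 and 4.44.

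Levels below are log2 intensities after normalization, and a strain value is the mean ± SD of its 2 arrays. A fold is the ratio of such means. No inhibitor or quiescence gene differed between strains by the test across all of them. In limma's F test over strains within the series, 0 of 10 genes passed an adjusted p of 0.05, against 2.8% of all 7453 tested probe sets. At an unadjusted p under 0.05 there were 4 (Cdkn1c, Cdkn1a, Ndn and Ccng2), against 648 of all 5624 tested genes. By an ordinary F test without moderation 0 of the 10 passed adjustment. The SD between strains is that of the means of 2 arrays, within the series. Its median was 0.295 over the 10 genes and 0.259 over all 5624 tested genes. Cdkn1c had the widest spread of the 10 (SD between strains 0.60) and Foxo3 the narrowest (0.16).

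**Figure D1:**
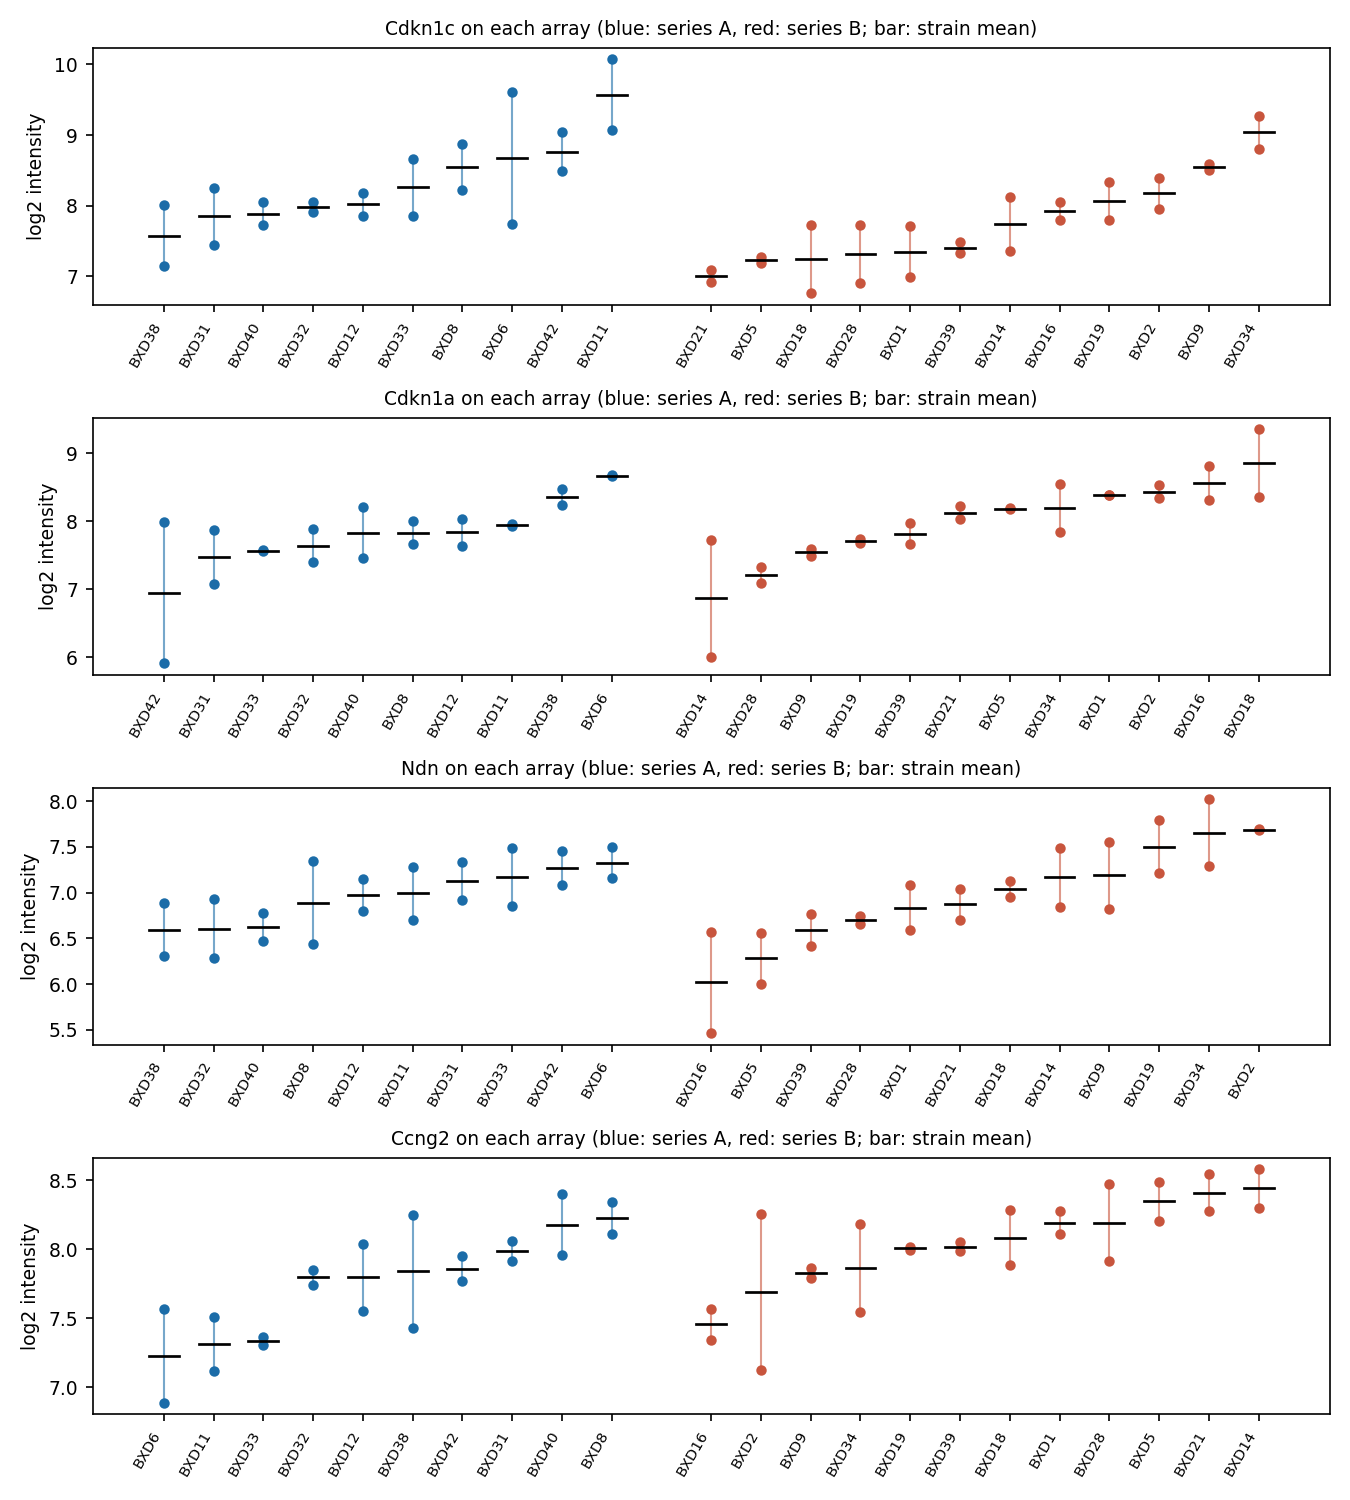
Log2 intensity (y axis) of Cdkn1c, Cdkn1a, Ndn and Ccng2 on each array, with strains on the x axis ordered by their mean within series A (blue) and series B (red). Points are arrays, lines join the 2 arrays of a strain and black bars are strain means. Cdkn1c runs from 7.58 in BXD38 to 9.57 in BXD11 and from 7.01 in BXD21 to 9.04 in BXD34, and for Cdkn1c in BXD6 and Cdkn1a in BXD42 and BXD14 the arrays of 1 strain lie far apart.

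Cdkn1c encodes p57, an imprinted inhibitor expressed from the maternal allele. Its array values in series A were 7.14 at the lowest, 8.12 at the median and 10.07 at the highest, and in series B 6.77, 7.73 and 9.27. Strain means in series A ran from 7.58 ± 0.61 (SD, n = 2) in BXD38 to 9.57 ± 0.71 in BXD11, a 3.97-fold range. In series B they ran from 7.01 ± 0.11 in BXD21 to 9.04 ± 0.33 in BXD34, a 4.09-fold range. The strain effect did not pass (limma F test, adjusted p = 0.0843), and the share of variance between strains, the intraclass correlation, was 0.485 ± 0.188 (jackknife SE over 22 strains).

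The highest strains in Cdkn1c held it on both arrays. BXD34 read 8.80 and 9.27, both above every other array of series B, and BXD9 followed with 8.50 and 8.59. BXD11 read 10.07 and 9.07, of which the second lay below the higher of the BXD6 arrays. The BXD6 arrays were the farthest apart, at 9.61 and 7.75. BXD34 was higher than the mean of the remaining strains of series B by 1.40 ± 0.35 (SE, log2), or 2.64-fold (limma, adjusted p = 0.0456). Such comparisons were adjusted over probe sets within each strain and not over strains. Of all comparisons of probe sets with strains 0.442% passed, and 0.537% of probe sets passed as higher in BXD34. In the 220 comparisons of the 10 genes with a strain, Cdkn1c in BXD34 was the only call. It rested close to the threshold: it did not pass without BXD40 and BXD42 (0.0505), nor with the series not modelled (1.08 higher, 0.138), nor in 26 of the 44 fits that each leave out 1 array. BXD11 was higher by 1.40 ± 0.36, or 2.63-fold, which did not pass (0.0655), but did with the series not modelled (1.64, 0.0112), without BXD2, BXD6 and BXD34 (1.46, 0.0224) and without BXD6 replicate 1 or 2 (down to 0.0147). Without BXD6 replicate 1 or 2 the strain effect of Cdkn1c also passed (adjusted p down to 0.00985).

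Cdkn1a encodes p21, the inhibitor that p53 induces after DNA damage. Array values of its brighter probe set were 5.91, 7.90 and 8.68 (lowest, median, highest) in series A and 6.00, 8.10 and 9.35 in series B. BXD6 was high on both arrays, at 8.66 and 8.68, above every other array of series A. BXD18, highest in series B, read 9.35 and 8.35. The lowest strains were uneven: the arrays labelled BXD42 read 7.98 and 5.91, and BXD14 read 7.72 and 6.00, so that 1 array of each lay within the range of other strains. The ranges of strain means were 3.30-fold from BXD42 to BXD6 and 3.97-fold from BXD14 to BXD18, and the strain effect did not pass (limma, adjusted p = 0.216). It passed when BXD40 and BXD42 were left out (0.0417) and when BXD42 replicate 1 alone was left out (0.0124).

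The dimmer probe set of Cdkn1a had a mean of 6.00, just under the brightness limit, and was not tested in the main comparison. With no limit on brightness its strain effect had an adjusted p of 0.176 (limma). Its strain means in series B ran 7.58-fold, from BXD39 (4.92 ± 0.57, n = 2) to BXD16 (7.84 ± 0.09). Over the strain means centred on their series, both probe sets of Cdkn1a correlated at r = 0.499 (permutation p = 0.0289) and rho = 0.631 (permutation p = 0.00432, 22 strains). Without the farthest 2 strains r was 0.453, and within series A and B it was 0.685 and 0.482. These are 1 of 2 such relations between probe sets of a gene, and their p-values are unadjusted.

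Of the INK4 genes, Cdkn2c encodes p18 and Cdkn2d encodes p19, and neither differed between strains by limma (adjusted p = 0.802 and 0.858). Cdkn2c arrays ran from 7.56 to 9.04 in series A, with a median of 8.47, and from 7.83 to 8.83 in series B, with a median of 8.32. The lowest Cdkn2c strain was BXD8, with 7.56 and 7.91, lower than the other strains of series A by 0.72 on the log2 scale (-0.72 ± 0.23, SE), which did not pass (limma, adjusted p = 0.413). Cdkn2d arrays ran from 5.77 to 7.83 in series A, with a median of 6.70, and from 4.01 to 6.80 in series B, with a median of 5.91. Its strains differed no more than the arrays within them, with an intraclass correlation of -0.038 ± 0.207 (jackknife SE). The SD within a strain was 0.67 for single arrays, and that between strains was 0.46 for means of 2 arrays. BXD16 read 6.14 on the first array and 4.01, next to the floor of 4, on the second.

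Ndn encodes necdin, an imprinted growth suppressor of the MAGE family expressed from the paternal allele. Array values of its brighter probe set were 6.29, 6.92 and 7.49 in series A and 5.47, 6.90 and 8.02 in series B (lowest, median, highest). The lowest strain, BXD16, read 6.57 and 5.47, and the highest, BXD2, read 7.68 and 7.69, a 3.17-fold range of means in series B against 1.66-fold in series A. BXD34 was next to BXD2 with 7.29 and 8.02. The strain effect did not pass (limma, adjusted p = 0.223), nor did BXD16 (-1.03 ± 0.28, SE, adjusted p = 0.148) or BXD2 (0.79 ± 0.28, 0.181) against the rest of series B. The intraclass correlation was 0.406 ± 0.123. The other probe set had a mean of 5.23, was too dim to be tested, and had no positive relation with the first over the strain means (r = -0.137, permutation p = 0.500, rho = -0.141, permutation p = 0.518, r without the farthest 2 strains -0.0820, within series 0.339 and -0.492), so the Ndn values are those of 1 probe set.

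Btg1 and Tob1 belong to the BTG/TOB family, whose proteins recruit an RNA deadenylase and slow cell division. Btg1 arrays ran from 5.80 to 7.42 in series A and from 6.49 to 7.93 in series B, with medians of 6.91 and 7.05. Tob1 arrays ran from 6.40 to 8.03 and from 7.13 to 8.17, with medians of 7.31 and 7.77. BXD2 was the highest strain of series B in both genes (Btg1 7.66 ± 0.39, n = 2, and Tob1 8.02 ± 0.03), and BXD8 the highest of series A in both (7.20 ± 0.31 and 7.75 ± 0.40). Neither passed the strain effect by limma (adjusted p = 0.855 and 0.687). The other probe set of Tob1 was at the floor on all 44 arrays.

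Ccng1, a p53 target, and Ccng2, a target of FOXO factors linked to cell cycle arrest, encode G-type cyclins. Ccng1 arrays ran from 6.18 to 7.54 in series A and from 6.68 to 8.06 in series B (medians 6.99 and 7.24), with no strain effect past the threshold (limma, adjusted p = 0.889). For Ccng2 they ran from 6.89 to 8.40 and from 7.12 to 8.58 (medians 7.81 and 8.08). Ccng2 strain means ran 2.00-fold from BXD6 (7.22 ± 0.48, n = 2) to BXD8 (8.23 ± 0.17) and 1.98-fold from BXD16 (7.45 ± 0.16) to BXD14 (8.44 ± 0.20), which did not pass (limma, adjusted p = 0.362). Foxo3, the forkhead factor, was the steadiest of the 10 genes: arrays ran from 7.68 to 8.48 in series A and from 7.81 to 8.66 in series B, strain means spanned 1.59-fold and 1.25-fold, and the adjusted p was 0.955 by limma.

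Between the array series, Cdkn2d, Tob1 and Ccng1 differed, which is 3 of 10 genes, against 21.8% of all tested probe sets. Higher in series B were 2 of the 10 (10.8% of all) and higher in series A 1 of the 10 (11.1%). Cdkn2d fell from a mean of 6.76 ± 0.52 (SD over 10 strains) in series A to 5.88 ± 0.40 (12 strains) in series B, 1.84-fold (limma, adjusted p = 0.00166), and 5 of the 12 strains of series B lay below every strain of series A. Tob1 rose from 7.26 ± 0.32 to 7.75 ± 0.17, 1.41-fold (0.00197), with 6 of the 12 strains above every strain of series A. Ccng1 rose from 6.97 ± 0.28 to 7.24 ± 0.16, 1.20-fold (0.0490), and this call was lost without BXD40 and BXD42 (0.137), without BXD2, BXD6 and BXD34 (0.104), with log2 of intensity plus 16 (0.0504) and in 24 of the 44 fits that leave out 1 array.

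**Figure D2:**
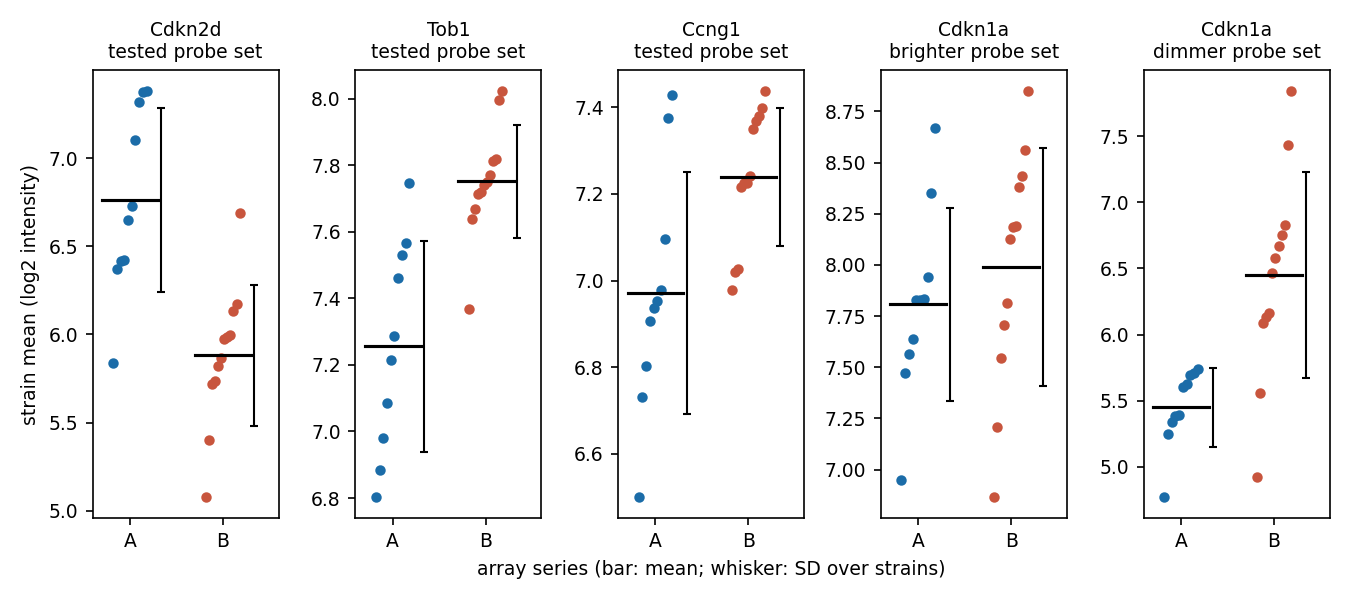
Strain means (log2 intensity, y axis) in array series A (10 strains, blue) and B (12 strains, red) for Cdkn2d, Tob1, Ccng1 and both probe sets of Cdkn1a. Black bars are means over strains and whiskers are SDs over strains. Cdkn2d sits lower in B (5.88 against 6.76), Tob1 and Ccng1 sit higher, and of the Cdkn1a probe sets only the dimmer, untested one shows 10 of 12 strains of B above all of A.

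The other 7 genes did not pass between series. Cdkn1c was lower in series B by 0.56 on the log2 scale (-0.56 ± 0.24, SE, limma adjusted p = 0.0946), and Btg1 and Ccng2 were each higher by 0.29 (0.0654 and 0.126). For Cdkn1a the probe sets differed in size. The tested one was 7.81 ± 0.47 in series A and 7.99 ± 0.58 in series B (limma, adjusted p = 0.574), and the untested one was 5.45 ± 0.30 and 6.45 ± 0.78. Immediate early genes, the transcription factors and other fast responders to a stimulus, also moved between the series: 11 of 14 were higher in series B and 0 in series A. The mean of the 14 on an array ran from 8.65 to 9.32 in series A and from 8.77 to 10.52 in series B. Their part in the differences of Cdkn2d, Tob1 and Ccng1 was not tested.

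Strains high in Cdkn1c tended to be low in the genes of proliferation, by a relation close to the threshold. A proliferation score, the mean log2 intensity of 24 tested genes of DNA replication and mitosis, ran over strains from 8.34 to 8.77 in series A and from 8.0 to 8.75 in series B. In series B the lowest strains in the score were BXD2, BXD34 and BXD9, which were the highest 3 in Cdkn1c. In series A the lowest were BXD11 and the arrays labelled BXD42, the highest 2 in Cdkn1c. Not every strain followed: BXD19 and BXD6 were above their series means in both measures, and the arrays labelled BXD40 were below in both. Over 22 strain means centred on their series, Cdkn1c and the score correlated at r = -0.679 (permutation p = 0.00071, adjusted p = 0.0426) and rho = -0.582 (permutation p = 0.00679, adjusted p = 0.136). Both are adjusted over the 60 relations of the 10 genes with 6 list scores. Without BXD2 and BXD34, the strains farthest from the median score, r was -0.615, and within series A and B it was -0.681 and -0.713.

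**Figure D3:**
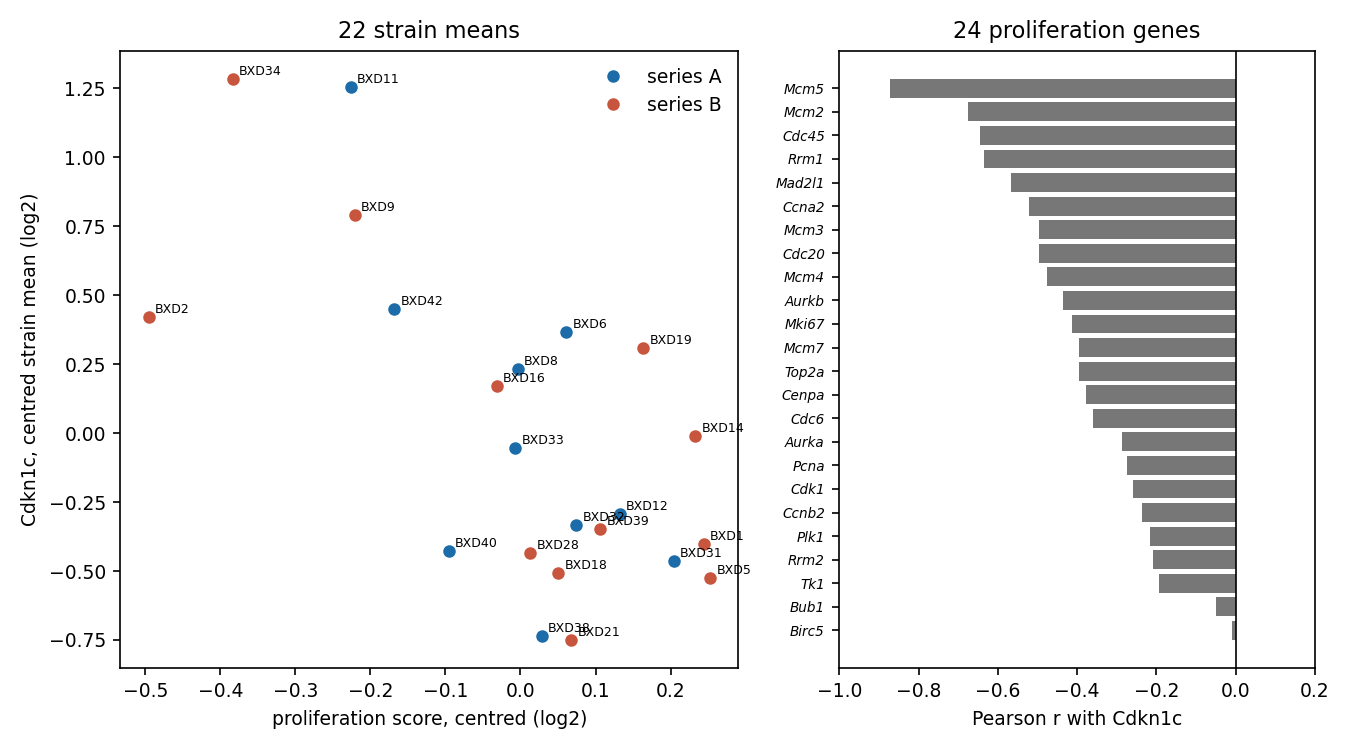
Left, Cdkn1c (y axis) against the proliferation score (x axis), both strain means in log2 units centred on the mean of the array series, with each point a strain of series A (blue) or B (red). Right, Pearson r over the 22 strains of each of the 24 proliferation genes with Cdkn1c (x axis). BXD34, BXD11 and BXD9 sit at high Cdkn1c and low score, and all 24 bars lie below 0, from -0.871 for Mcm5 to -0.00804 for Birc5.

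The relation was spread over the list. All 24 proliferation genes had a negative r with Cdkn1c (median -0.396), where 2971 of 5623 other tested genes did (median -0.0241). This is a description, since the genes of the list move together. The strongest, named after their values were seen, were the replication helicase subunits Mcm5 (-0.871) and Mcm2 (-0.674), the helicase cofactor Cdc45 (-0.646) and the ribonucleotide reductase subunit Rrm1 (-0.636). Mcm5 ran 1.80-fold in series A, from BXD11 to BXD38, and 2.13-fold in series B, from BXD9 to BXD21. Within strains the relation did not pass. For differences between the arrays of a strain, here and below, r was not centred on the mean difference. Its permutations changed the signs of the differences at random and did not exchange strains. Taken so, Cdkn1c and the score had r = -0.169 (permutation p = 0.447, adjusted p = 0.720, 22 strains). The signs were opposite in 13 of 22 strains. Over strain means the relation passed adjustment with little room: r was -0.703 without BXD40 and BXD42 (adjusted p = 0.0720) and -0.539 without BXD11 and BXD34 (0.549). In 27 of the 44 fits that leave out 1 array the adjusted p was above 0.05, at r of -0.714 to -0.599 over all 44. These fits used 10000 permutations, and the part of permutation error in their adjusted p was not tested.

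Other measures moved with Cdkn1c over the strains. The erythroid score, the mean of the 3 tested of 9 erythroid markers (Hba-a1, Slc4a1 and Klf1), correlated with it at r = 0.582 (permutation p = 0.00456, adjusted p = 0.0912) and rho = 0.427 (permutation p = 0.0467, adjusted p = 0.462), with r = 0.511 without BXD31 and BXD38 and 0.732 and 0.437 within the series. Epor and Alas2, 2 further erythroid genes, were too dim to be tested. That score ran over strains from 7.37 to 9.04 in series A and from 7.66 to 8.80 in series B, and BXD34 had the highest value of series B. Within the score, r with Cdkn1c was 0.512 for Hba-a1, 0.470 for Slc4a1 and 0.0395 for Klf1. Single markers of other lists, named after their values were seen and given as a description, had r of similar size. These were 0.585 for Vwf (megakaryocytes), 0.530 for S100a9 (neutrophils), -0.584 for Dntt (lymphoid progenitors) and -0.596 for Cd34. Signs were mixed within lists: 4 of 11 tested neutrophil and monocyte markers had a negative r (Mpo -0.469), as had 4 of 10 B cell markers. Cd79b, on the B cell list with Dntt, had 0.471. The neutrophil and monocyte score had r = 0.0486 with Cdkn1c (permutation p = 0.836, adjusted p = 0.912, rho = 0.185, permutation p = 0.420) and the B cell score 0.277 (permutation p = 0.222, adjusted p = 0.740, rho = 0.344, permutation p = 0.134). The ratio of 3′ to 5′ probe sets of Gapdh, a measure of RNA integrity and labelling, correlated with Cdkn1c at r = 0.443 (permutation p = 0.0438, adjusted p = 0.241 over 11 relations, rho = 0.484, permutation p = 0.0264). On the log2 scale this ratio ran from 3.05 to 4.21 over the arrays of series A and from 2.65 to 4.20 in series B. The 3′ signal was thus well above the 5′ signal on every array. With the proliferation score the same ratio had r = -0.204 (permutation p = 0.347, adjusted p = 0.516, rho = -0.0830, permutation p = 0.715). The part of these measures in the relation of Cdkn1c with proliferation was not tested.

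Ndn and Ccng2 lay on opposite sides of the same score without passing. Ccng2 correlated with proliferation at r = 0.461 (permutation p = 0.0257, adjusted p = 0.295, rho = 0.431, permutation p = 0.0448, adjusted p = 0.462), with 0.167 and 0.664 within the series and 0.388 without BXD2 and BXD34. Ndn had r = -0.440 (permutation p = 0.0804, adjusted p = 0.481, rho = -0.338, permutation p = 0.152, adjusted p = 0.607), which was -0.0767 without BXD2 and BXD34 and -0.0213 and -0.538 within the series. The Gapdh ratio had opposite signs with these genes too, at r = 0.435 for Ndn (permutation p = 0.0340, adjusted p = 0.241, rho = 0.481, permutation p = 0.0266) and r = -0.410 for Ccng2 (permutation p = 0.0698, adjusted p = 0.256, rho = -0.429, permutation p = 0.0550), and its part was not tested. For Ccng2, 21 of the 24 proliferation genes had a positive r (median 0.256), and for Ndn 23 of 24 had a negative one (median -0.263). Of the other genes beside Cdkn1c, the count of negative r ran from 10 of 24 for Cdkn2d to 19 of 24 for Tob1. Over all other tested genes, 52.8% were negative with Ndn and 47% with Ccng2. For Cdkn2c, over strain means its r with the score was -0.121 (permutation p = 0.578, adjusted p = 0.836, rho = -0.333, permutation p = 0.1496, adjusted p = 0.607), and over differences between the arrays of a strain it was -0.645 (permutation p = 0.00325, adjusted p = 0.195), with opposite signs in 17 of 22 strains, neither past the threshold.

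**Figure D4:**
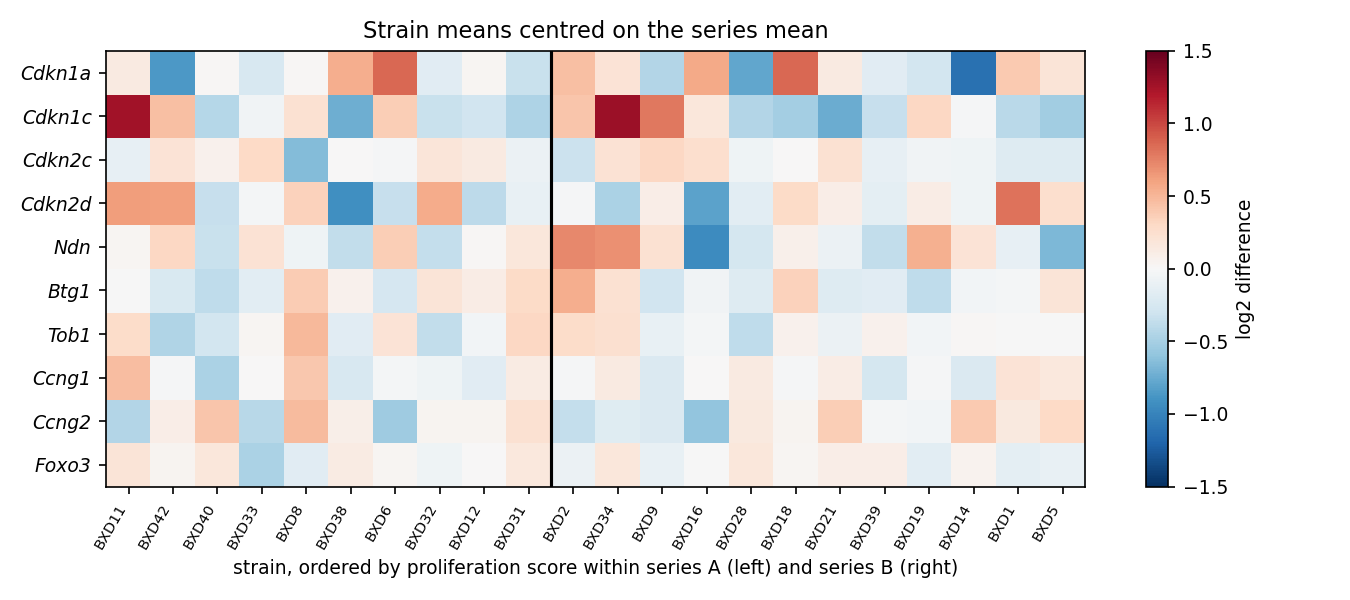
Strain means of the 10 genes (y axis), each minus the mean of its array series (log2 difference, colour), with the strains of series A left and of series B right of the black line, ordered within a series from low to high proliferation score (x axis). Cdkn1c is above its series mean in BXD11 and in BXD2, BXD34 and BXD9 at the low end of each series, Ndn is high in BXD2 and BXD34, and Foxo3 lies between -0.48 (BXD33) and 0.19.

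No pair of the 10 genes passed over strains. Of 45 pairs among the 10 genes, 7 had an unadjusted permutation p under 0.05 and 0 passed adjustment by r or by rho (smallest adjusted p 0.130 and 0.124). Cdkn1c went with Ndn (r = 0.542, permutation p = 0.0109, rho = 0.641, permutation p = 0.00276, r without BXD11 and BXD34 0.517, within series 0.506 and 0.585). It went against Ccng2 (r = -0.559, permutation p = 0.00761, rho = -0.556, permutation p = 0.00879, without BXD11 and BXD34 -0.503, within series -0.506 and -0.614). Btg1 and Tob1, whose promoters are printed above, had r = 0.523 (permutation p = 0.0115, rho = 0.557, permutation p = 0.00938, 0.351 without BXD8 and BXD2, within series 0.466 and 0.683). Cdkn2c had negative r with both Tob1 (-0.553) and Btg1 (-0.465). The CIP/KIP pair Cdkn1a and Cdkn1c had r = -0.0576 (permutation p = 0.805, rho = -0.135, permutation p = 0.562).

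Of the 10 genes, all compared with the immediate early score (the mean of 14 genes), Cdkn1a and Btg1 alone passed with it by rho. By rank they rose with it: Cdkn1a had rho = 0.717 (permutation p = 0.00086, adjusted p = 0.0258) and r = 0.499 (permutation p = 0.0295, adjusted p = 0.295), and Btg1 had rho = 0.661 (permutation p = 0.0008, adjusted p = 0.0258) and r = 0.613 (permutation p = 0.00274, adjusted p = 0.0822). Without BXD19 and BXD2, r was 0.521 for Cdkn1a and 0.435 for Btg1. Within series A r was 0.172 and 0.205, and within series B 0.607 and 0.777. The score spans 8.73 to 9.24 over the strains of series A and 8.81 to 10.48 over those of series B. Over differences between the arrays of a strain, Btg1 and the score had r = -0.280 (permutation p = 0.664, adjusted p = 0.782) and Cdkn1a 0.580 (permutation p = 0.129, adjusted p = 0.433).

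**Figure D5:**
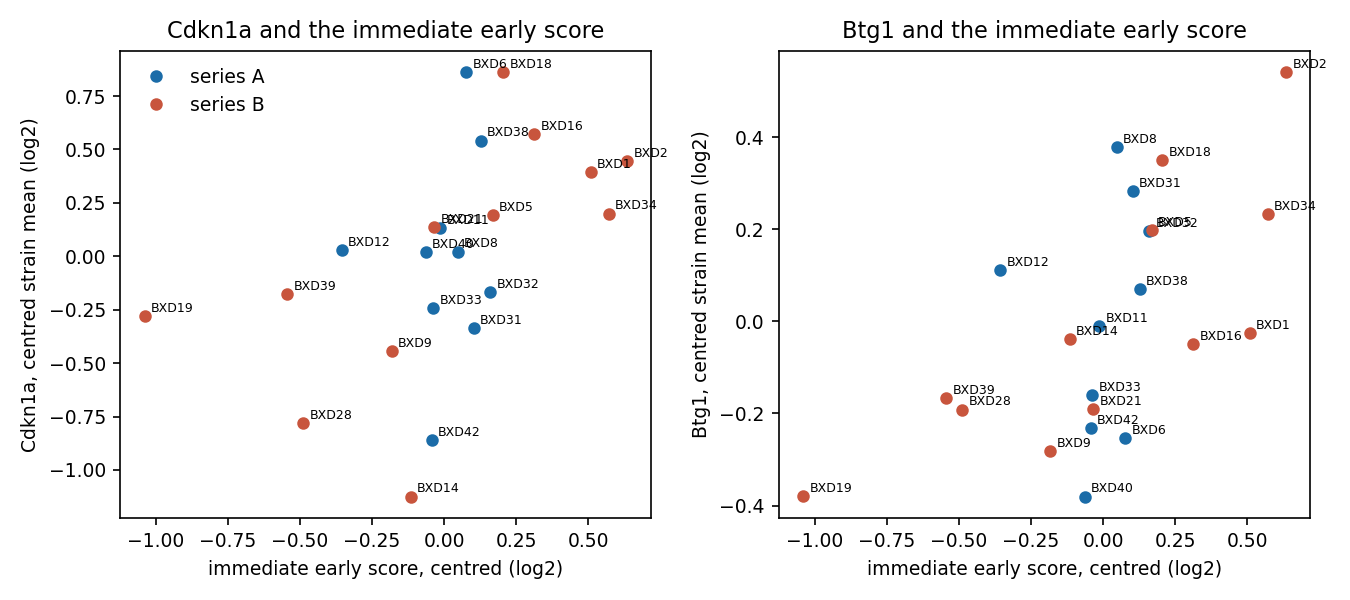
Cdkn1a (left) and Btg1 (right) on the y axis against the immediate early score on the x axis, as strain means in log2 units centred on the mean of series A (blue) or B (red). Each point is a strain. In series B the points tend to rise with the score (r = 0.607 and 0.777), which is lowest in BXD19 and highest in BXD2. BXD14 is lowest in Cdkn1a (-1.12) at a middle score. The strains of series A cover a narrow range of the score.

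The genes most like the 3 with the smallest strain effect p were ranked by Pearson r over the 22 centred strain means, among 5623 other tested genes. Such r are the largest of many over few strains, so their height, also within the series, comes in part from the ranking. They are given as a description and were not tested. For Cdkn1c they were Eng (0.847), the coreceptor endoglin of stem cells and endothelium, Zfpm1 (0.827), the cofactor of GATA1, and Tie1 (0.810), a receptor tyrosine kinase of endothelium and stem cells. Within the series, r of these genes lay between 0.779 and 0.914, and Zfpm1 and Tie1 passed the strain effect (limma, adjusted p = 0.0414 and 0.0372) while Eng did not (0.284). For Ndn they were Tcf15 (0.796), a basic helix-loop-helix factor, Taf1c (0.743) and Abcg2 (0.727), the transporter behind the side population of stem cells. For Cdkn1a they were Hpcal1 (0.714), Sae1 (0.705) and Hax1 (0.701).

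Related genes were counted for the strain effect in the same way. Of 19 other inhibitors and growth suppressors, 13 were on the array and 7 were tested, and Btg2, a BTG family gene and p53 target, passed (limma, adjusted p = 0.00045), with a 2.48-fold range in series B from BXD19 to BXD2. Of 10 tested cyclins and kinases 0 passed, with Ccnd2 the smallest (0.361), and of 24 proliferation genes Bub1 passed (7.34e-05). Of the 6 tested genes of a separate list of p53 targets, which does not hold Btg2, 0 passed (smallest Plk2, 0.873). Of 8 FOXO targets Txnip, an inhibitor of thioredoxin, passed (0.00333), and it spanned 5.59-fold in series B from BXD16 to BXD34. Of 8 imprinted genes 0 passed (smallest Sgce, 0.105). For these lists of 0, the unadjusted counts under 0.05 were 1 of 10, 0 of 6 and 1 of 8, against 648 of all 5624 tested genes. Immediate early genes differed more often, with 9 of 14 past the threshold, against 146 of all 5624 tested genes.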

How the data were processed

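RNA of sorted Lin-Sca-1+c-kit+ marrow cells from 22 BXD strains was measured on 44 one-colour arrays. The authors' deposited table held linear intensity values of 12488 probe sets. Their 2% trimmed mean was 200.071 to 200.092 on every array, so the deposited intensities had been scaled. The summarising software is not given in the sources used here. Intensities under 16 were set to 16 and log2 values were quantile normalized (array medians 6.55 to 6.83 before). The 66 control probe sets and those with a mean under the 40th percentile (6.00) were left out, leaving 7453. The number of arrays limits the precision.

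Strains were tested with limma 3.58.1 in R 4.3.3, all arrays in 1 fit, by an F test over 20 contrasts within the array series (22 residual and 4.37 prior degrees of freedom) and as each strain against the rest of its series. Array series were compared on strain means. P-values were Benjamini-Hochberg adjusted over all tested probe sets, and within each strain where a strain was tested against the rest, threshold 0.05. Scores and pairs were correlated over centred strain means with 100000 permutations of strains within series. Differences between the arrays of a strain were correlated without centring, and there the permutations were random changes of sign. The fits were tested on simulated data. Gene names came from the platform table and its RefSeq match (10817 probe sets); 10833 probe sets had 1 symbol, 396 several and 1193 none.

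The genes and lists were chosen with earlier results of these data known. Named were all probe sets of the 10 symbols (the brightest standing for a gene), up to 5 genes per other list that passed the strain effect or else the one of smallest p, and the 3 genes most like each of the 3 with the smallest p. Alternatives varied the normalization, brightness limit, floor, moderation, series term, strains and arrays. The scanner parameter files were not used.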

Additional observations from a re-analysis of the deposited data

How the results depend on the processing

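No paired analysis was possible because the labels give the arrays no replicate numbers, and numbers were assigned in accession order. Of the 10 genes, 0 passed the strain effect, and 1 did with the series not modelled (Cdkn1c, adjusted p = 0.0208) and without BXD40 and BXD42 (Cdkn1a). All tested probe sets past it numbered 209, and 483 with the series not modelled, 132 without BXD2, BXD6 and BXD34 and 52 in series A alone, which has fewer samples. The single call of a gene in a strain, Cdkn1c in BXD34, became 0 with no quantile normalization (adjusted p = 0.0575) and with no brightness limit (0.0696), and with the series not modelled Cdkn1c in BXD11 passed in its place. The 3 calls between series were 2 to 4 under the 6 alternatives, and Ccng1 was the one lost in 3 of them. Of the list relations, 1 passed, and 0 passed with no quantile normalization, with no brightness limit, with log2 of intensity plus 16, without BXD40 and BXD42, and without BXD2, BXD6 and BXD34. Spearman's rho gave 2. In alternatives added after the data were seen, 0 passed without BXD11 and BXD34 and 0 over differences between the arrays of a strain. Those differences turned the sign of Cdkn1c with erythroid genes (r = -0.293), of Ndn with erythroid genes (-0.177) and of Btg1 with immediate early genes (-0.280). The cause of these changes was not tested. Leaving out each array in turn gave 0 to 1 of the 10 genes past the strain effect, 171 to 247 of all probe sets, 0 to 3 calls of a gene in a strain, 2 to 4 between series, 0 to 1 list relations and 0 to 3 pairs (3 without BXD28 replicate 1).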
